A study of Mus musculus with 4 samples.

Results

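Type I interferon response genes are the genes that a cell switches on when interferon alpha or beta reaches its receptor. A set of 37 mouse genes of this kind was selected by gene symbol, and 35 of them had a probe set that names that gene alone among the 19505 genes of the array. Each of the 35 had a single such probe set, so that no choice among probe sets was needed. Ifi44 and Ifi205 were not analysed here. The genes were measured in macrophages grown from bone marrow of Hem1 KO mice and of WT mice, with 1 array for each of 2 mice per genotype. Hem1, encoded by Nckap1l, is the blood cell subunit of the WAVE complex, which drives branching of actin filaments. In both genotypes femoral marrow was grown for 8 days in RPMI with 20% L929 conditioned medium and 10% fetal calf serum, and no further treatment is named. The strain, age and sex of the mice, and the way in which the gene was removed, are not given in the sources used here. Whether the cultures or arrays were handled together is not given either.

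Binding of type I interferon to the receptor IFNAR activates the kinases JAK1 and TYK2, which phosphorylate STAT2 among other proteins. With IRF9 it enters a transcription factor complex that binds the interferon-stimulated response element, a DNA sequence upstream of many of the genes described here. Their products sense foreign nucleic acid, block the copying or translation of viral RNA, tag proteins with ISG15, or feed back on the pathway. Macrophages keep a low level of this response without infection, through small amounts of interferon that they make themselves.

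The response element was searched as the letters GAAA, then any 2 bases, then GAAA again, on either strand (TTTC, any 2 bases and TTTC where the match is on the opposite strand, with overlapping matches counted) in the 250 bases before the RefSeq start sites. Of the 37 genes, 27 were in the RefSeq promoter table (build GRCm38.p6), and 12 of these, 44.4%, held at least 1 match. Over all 27025 genes of the table the share was 3.46%. The 170 bases before the start site are shown for Isg15, Ifit1 and Ifit3, which read high together on 1 array, and for Trim30d and Trim30a, a pair of nearby copies that read differently from each other. Each is written 5′ to 3′ on the strand of the gene and ends at the base before the start site, and the capitals mark the matches to the searched letters.
Isg15, GRCm38.p6 chr4:156200819-156200988, minus strand: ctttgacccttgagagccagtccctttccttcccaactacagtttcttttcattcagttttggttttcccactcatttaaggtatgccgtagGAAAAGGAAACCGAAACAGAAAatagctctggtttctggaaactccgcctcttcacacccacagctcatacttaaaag
Ifit1, GRCm38.p6 chr19:34640719-34640888, plus strand: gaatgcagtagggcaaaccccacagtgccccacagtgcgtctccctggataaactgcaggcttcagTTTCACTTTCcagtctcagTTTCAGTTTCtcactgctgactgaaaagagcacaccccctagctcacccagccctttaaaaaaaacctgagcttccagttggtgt
Ifit3, GRCm38.p6 chr19:34583359-34583528, plus strand: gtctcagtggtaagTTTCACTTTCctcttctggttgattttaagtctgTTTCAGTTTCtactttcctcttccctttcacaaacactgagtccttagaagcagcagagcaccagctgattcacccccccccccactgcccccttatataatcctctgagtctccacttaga
Trim30d, GRCm38.p6 chr7:104507850-104508019, minus strand: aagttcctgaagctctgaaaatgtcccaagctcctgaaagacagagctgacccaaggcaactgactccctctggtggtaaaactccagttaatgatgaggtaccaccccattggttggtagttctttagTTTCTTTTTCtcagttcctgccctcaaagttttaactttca
Trim30a, GRCm38.p6 chr7:104465194-104465363, minus strand: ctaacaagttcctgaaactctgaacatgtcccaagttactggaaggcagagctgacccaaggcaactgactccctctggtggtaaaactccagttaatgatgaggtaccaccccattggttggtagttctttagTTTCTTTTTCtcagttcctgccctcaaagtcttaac
In Isg15 the 3 matches overlap in 1 block, which spans bases -78 to -57 counted back from the start site. Ifit1 and Ifit3 each held 2 separate matches. The Trim30d and Trim30a windows were identical at 158 of 170 bases in a global alignment and share the same match. A match is a description of the letters and not evidence of binding. Irf7, Ifit2 and Cmpk2, whose values are given below, had no match in the window searched.

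The deposited values are log2 RMA values, on which a difference of 1 is a doubling of the signal. Each array's background was taken as the 95th percentile of 1448 chemosensory receptor genes, a group mostly silent outside sensory tissue, and lay at 5.38 to 6.04. Nckap1l read 10.04 and 9.62 on the Hem1 KO arrays, against 11.37 and 11.11 on the WT arrays. The arrays did not share a common level, since the median over all genes was 6.95 and 6.49 on the Hem1 KO arrays and 6.82 and 6.42 on the WT arrays (replicates 1 and 2). All 7 measured macrophage markers lay above background on all 4 arrays, with a mean level of 11.4 and 11.3 on the Hem1 KO arrays and 11.9 and 11.5 on the WT arrays. Of 9 measured stromal markers, 6 were called higher in Hem1 KO, and their mean level was 8.80 and 8.23 on the Hem1 KO arrays, against 7.15 and 6.71 on the WT arrays. The part of these cells in the results below was not tested. In such whole cultures fewer cells of a type and less RNA per cell cannot be told apart.

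The interferon response genes read high on 1 of the 4 arrays, that of WT replicate 1, and the other WT array read close to the Hem1 KO arrays. Their median level was 7.47 and 7.12 on the Hem1 KO arrays, against 8.90 and 7.21 on the WT arrays. WT replicate 1 was the highest of the 4 arrays for 34 of the 35 genes, which was the case for 37.5% of all genes. It exceeded every other array by over 1 log2 unit for 17 of the 35, against 0.405% of all genes, or 79 genes in all. After each array was centred on its median, these counts were 33 and 15 of the 35, against 19.5% and 0.297% of all genes, and after quantile normalization they were 32 and 14, against 24.7% and 0.267%. The median difference between WT replicates 1 and 2 was 1.21 over the 35 genes and 0.28 over all genes. Between Hem1 KO replicates 1 and 2 it was -0.04 over the 35 genes and 0.38 over all genes. After median centring the median over the 35 genes was 0.81 between the WT arrays and -0.50 between the Hem1 KO arrays, beside -0.12 and -0.09 for all genes. After quantile normalization it was 0.83 and -0.30, beside -0.02 and 0.00 for all genes. Trim30d, Ifit2 and Xaf1 differed by over 1 log2 unit between the Hem1 KO arrays as deposited.

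**Figure D1:**
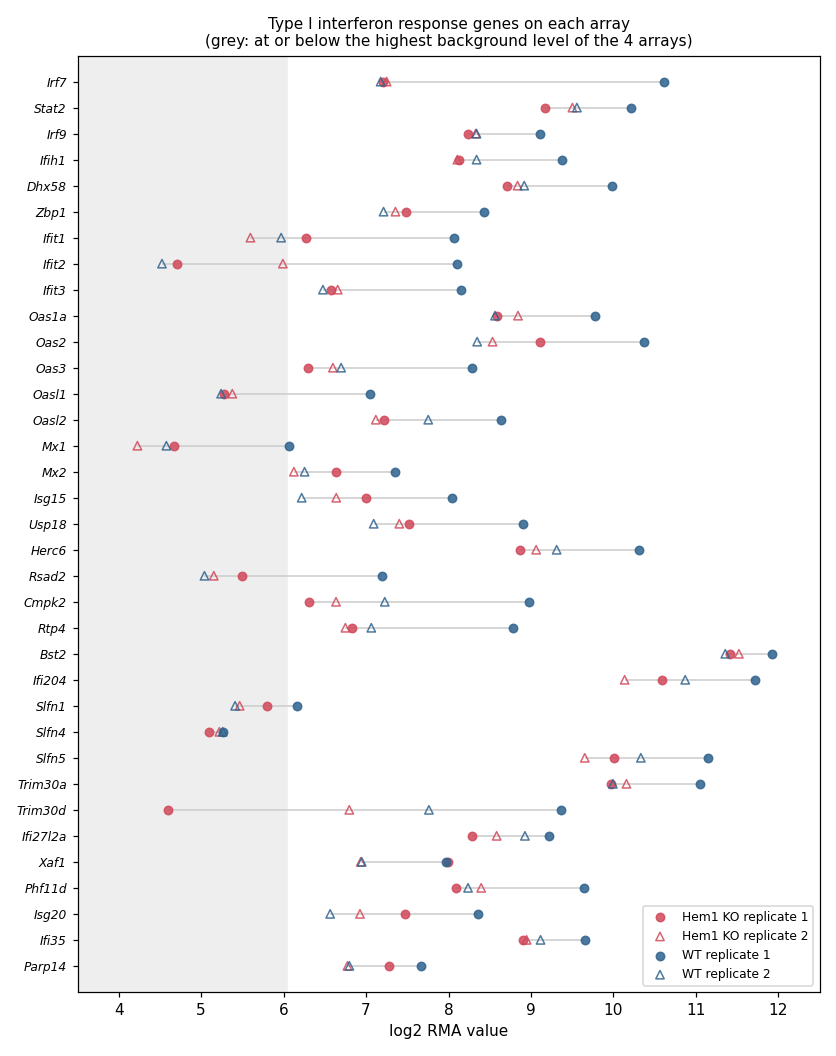
Log2 RMA value (horizontal axis) of each of the 35 measured genes (rows, ordered by role) on each array. Red marks stand for Hem1 KO and blue for WT, filled circles for replicate 1 and open triangles for replicate 2, and grey shading covers values up to the highest background level, 6.04. The filled blue circle, WT replicate 1, lies furthest right for 34 of the 35 genes.

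Between genotypes, 1 of the 35 genes, Trim30d, was called lower in Hem1 KO macrophages and 0 were called higher, at an adjusted p under 0.05 by limma over all 19505 genes. The call was made for 0.133% of all genes downward and for 1.48% upward. At an unadjusted p under 0.05, 9 of the 35 were lower, against 1.57% of all genes, and 0 were higher, against 3.63% of all genes. The difference lay under 0 for 34 of the 35, against 48.2% of all genes, with a median of -0.68 beside 0.01 for all genes. Both Hem1 KO arrays read below both WT arrays for 15 of the 35, against 13.3% of all genes. The count under 0, the count by unadjusted p and the median turn on WT replicate 1. In the fit without it, 17 of the 35 lay under 0, against 29.0% of all genes, 1 was lower at an unadjusted p under 0.05 (0.533% of all genes), and the median was 0.01 beside 0.16 for all genes. WT replicate 2 alone also read above both Hem1 KO arrays for 15 of the 35 (15.2% of all genes), so that count does not turn on WT replicate 1. WT replicate 2 read between them for 7 (44.1% of all genes). It read below both for 13, beside 7929 of all 19505 genes. Without WT replicate 2 the median was -1.32, beside -0.13 for all genes, and 25 were lower at an unadjusted p under 0.05, against 1.84% of all genes. Fits of 3 arrays gave every gene 1 shared standard error (0.405 or 0.500), so calls that appear in them are weak evidence.

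**Figure D2:**
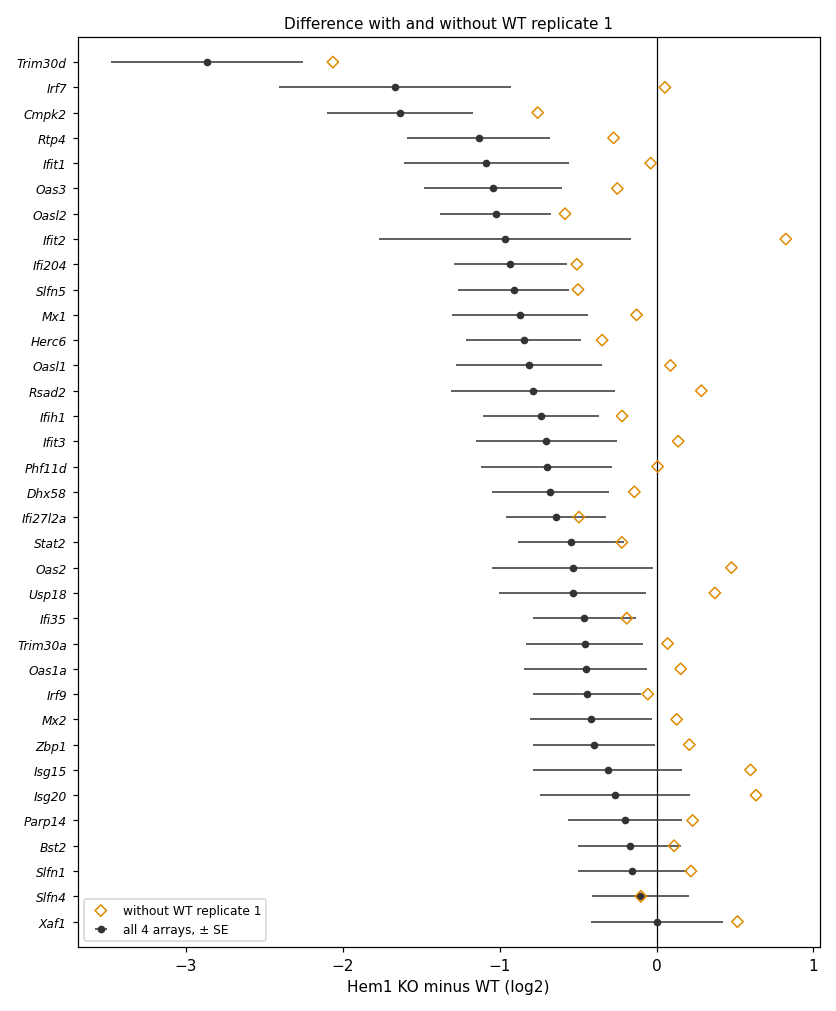
Log2 difference, Hem1 KO minus WT (horizontal axis), of the 35 genes (rows, sorted by the difference). Black circles with bars show the fit of all 4 arrays with its SE, and open orange diamonds the fit without WT replicate 1. The black circles run from -2.86 for Trim30d to 0.00 for Xaf1, and 18 of the orange diamonds lie above 0.

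**Figure D3:**
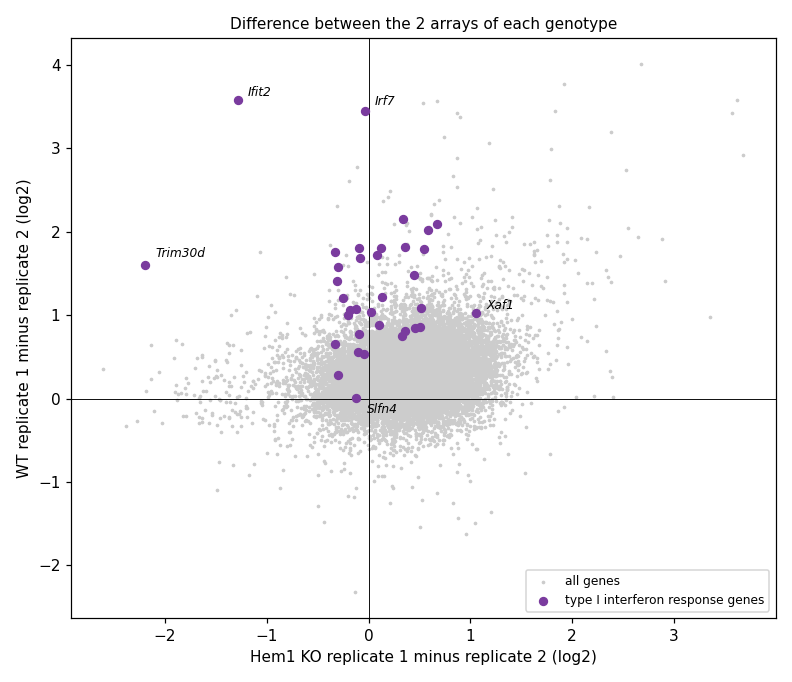
Difference between replicates 1 and 2 in log2 units on the Hem1 KO arrays (horizontal axis) and on the WT arrays (vertical axis), with all 19505 genes in grey and the 35 interferon response genes in purple. The purple points spread upward, with medians of -0.04 on the horizontal and 1.21 on the vertical axis, and Irf7 and Ifit2 stand highest among them.

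Among the factors that carry the signal, Irf7, which amplifies the response by inducing interferon genes, differed most between the WT arrays. Irf7 read 7.21 and 7.25 on the Hem1 KO arrays, against 10.62 and 7.18 on the WT arrays. WT replicate 1 was thus high alone, 10.9-fold above WT replicate 2, while WT replicate 2 and both Hem1 KO arrays lay within 0.07 of each other. This was the 4th largest excess of WT replicate 1 over WT replicate 2 among the 12158 genes above background on both. Hem1 KO minus WT was -1.67 (SE 0.74, adjusted p = 0.862 by limma), and 0.05 without WT replicate 1. Stat2, a signal transducer activated by the receptor kinases, read 9.17 and 9.50 on the Hem1 KO arrays, against 10.21 and 9.56 on the WT arrays. Irf9, the DNA-binding subunit of the same complex, read 8.24 and 8.33 on the Hem1 KO arrays, against 9.11 and 8.34 on the WT arrays. For both, WT replicate 1 was highest and WT replicate 2 lay just above the higher Hem1 KO array, by 0.05 for Stat2 and 0.01 for Irf9.

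The sensors of foreign nucleic acid also read highest on WT replicate 1. Ifih1, a receptor for long double-stranded RNA, read 8.13 and 8.11 on the Hem1 KO arrays, against 9.38 and 8.34 on the WT arrays (-0.74, SE 0.37, adjusted p = 1 by limma). Dhx58, a helicase that tunes such receptors, read 8.71 and 8.84 on the Hem1 KO arrays, against 9.99 and 8.92 on the WT arrays. Both WT arrays lay above both Hem1 KO arrays for these genes, WT replicate 2 by 0.21 for Ifih1 and by 0.08 for Dhx58. Zbp1, which detects left-handed nucleic acid and can start cell death, read 7.48 and 7.36 on the Hem1 KO arrays, against 8.43 and 7.21 on the WT arrays, so that WT replicate 2 was the lowest of the 4.

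The IFIT proteins bind viral RNA and hinder its translation, and their genes read far higher on WT replicate 1 than on WT replicate 2. Ifit1 read 6.27 and 5.60 on the Hem1 KO arrays, against 8.06 and 5.97 on the WT arrays (-1.08, SE 0.53, adjusted p = 1 by limma). Ifit3 read 6.57 and 6.66 on the Hem1 KO arrays, against 8.16 and 6.48 on the WT arrays. For both of these genes, whose upstream sequences are printed above, WT replicate 1 stood alone and WT replicate 2 lay within or below the Hem1 KO values. Ifit2 read 4.71 and 5.99 on the Hem1 KO arrays, against 8.11 and 4.52 on the WT arrays. It was above background on 1 array of each genotype, Hem1 KO replicate 2 and WT replicate 1, and was at least 6.03-fold higher on WT replicate 1 than on WT replicate 2, with the second held at background. Its Hem1 KO minus WT difference was -0.97 (SE 0.80, adjusted p = 1 by limma) and turned to 0.82 without WT replicate 1.

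The OAS enzymes make an oligoadenylate messenger that activates the antiviral nuclease RNase L. Oas2 read 9.11 and 8.53 on the Hem1 KO arrays, against 10.37 and 8.35 on the WT arrays, and Hem1 KO replicate 1 was the second highest. Oas3 read 6.30 and 6.60 on the Hem1 KO arrays, against 8.28 and 6.70 on the WT arrays (-1.04, SE 0.44, adjusted p = 0.762 by limma). Oas1a read 8.59 and 8.84 on the Hem1 KO arrays, against 9.77 and 8.56 on the WT arrays. WT replicate 2 lay above both Hem1 KO arrays for Oas3, by 0.10, and below both for Oas1a and Oas2. Oasl2, an OAS-like gene, read 7.22 and 7.12 on the Hem1 KO arrays, against 8.64 and 7.75 on the WT arrays. Here both WT arrays were above both Hem1 KO arrays, WT replicate 2 by 0.53, and the difference was -1.03 (SE 0.35, unadjusted p = 0.0123 and adjusted p = 0.405 by limma). Oasl1, which in the mouse restrains translation of Irf7, read 5.28 and 5.38 on the Hem1 KO arrays, against 7.04 and 5.24 on the WT arrays, and was above background on WT replicate 1 alone. With the Hem1 KO arrays held at background, Oasl1 was at least 1.35-fold lower in Hem1 KO than in the mean of the WT arrays. That fold rests on WT replicate 1, and the difference turned to 0.09 without that array. OAS genes have near-identical copies, such as Oas1a and Oas1g, whose probe sets may take up each other's signal.

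Mx1 and Mx2 encode dynamin-like GTPases that trap viral components. Mx1 read 4.67 and 4.23 on the Hem1 KO arrays, against 6.06 and 4.58 on the WT arrays, and was above background on WT replicate 1 alone. Mx2 read 6.64 and 6.12 on the Hem1 KO arrays, against 7.35 and 6.25 on the WT arrays, with WT replicate 2 between the Hem1 KO values.

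Isg15 encodes a ubiquitin-like protein that is attached to other proteins, and its upstream sequence is the one with 3 overlapping matches. It read 6.998 and 6.64 on the Hem1 KO arrays, against 8.04 and 6.22 on the WT arrays. WT replicate 1 was highest and WT replicate 2 lowest, so that the 2 Hem1 KO arrays lay between the WT arrays and the difference was -0.31 (SE 0.48, adjusted p = 1 by limma). Usp18, the protease that removes ISG15 and dampens the receptor, showed the same order. It read 7.53 and 7.40 on the Hem1 KO arrays, against 8.90 and 7.09 on the WT arrays. Herc6, the main ligase for ISG15 in the mouse, read 8.87 and 9.06 on the Hem1 KO arrays, against 10.31 and 9.31 on the WT arrays. Both WT arrays lay above both Hem1 KO arrays for Herc6, WT replicate 2 by 0.25 (-0.85, SE 0.37, unadjusted p = 0.0378 and adjusted p = 0.816 by limma).

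Rsad2, also called viperin, makes a nucleotide analogue that stops viral polymerases, and Cmpk2 is a nucleotide kinase gene beside it in the RefSeq gene order. Cmpk2 read 6.30 and 6.64 on the Hem1 KO arrays, against 8.98 and 7.23 on the WT arrays. Both WT arrays lay above both Hem1 KO arrays, WT replicate 2 by 0.59, and the difference of -1.63 (SE 0.46) had the smallest p after Trim30d (adjusted p = 0.165 by limma). Leaving out WT replicate 1 gave -0.76, and leaving out WT replicate 2 gave -2.51. Its neighbour Rsad2 read 5.50 and 5.15 on the Hem1 KO arrays, against 7.19 and 5.04 on the WT arrays. Rsad2 was above background on WT replicate 1 alone, at least 1.32-fold lower in Hem1 KO with these arrays held at background, and at 0.29 without WT replicate 1. Rtp4, a response gene of the receptor transporter family, read 6.83 and 6.75 on the Hem1 KO arrays, against 8.78 and 7.06 on the WT arrays (-1.13, SE 0.46, adjusted p = 0.675 by limma). Its WT replicate 2 lay 0.23 above the higher Hem1 KO array. Bst2, or tetherin, which holds budding virus at the cell surface, read 11.42 and 11.52 on the Hem1 KO arrays, against 11.92 and 11.36 on the WT arrays, a narrow range in which WT replicate 1 was still highest.

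Ifi204, a DNA sensor of the interferon-inducible p200 family, read 10.59 and 10.14 on the Hem1 KO arrays, against 11.72 and 10.87 on the WT arrays. Slfn5, of the Schlafen family, read 10.01 and 9.65 on the Hem1 KO arrays, against 11.15 and 10.33 on the WT arrays. For both, WT replicate 2 also exceeded the Hem1 KO arrays, by 0.28 for Ifi204 and 0.32 for Slfn5. The differences were -0.93 (SE 0.36, adjusted p = 0.599 by limma) for Ifi204 and -0.91 (SE 0.35, adjusted p = 0.610 by limma) for Slfn5, and -0.51 and -0.50 without WT replicate 1. Slfn1 ran from 5.41 to 6.16 over the 4 arrays and was above background on 1 array of each genotype. Slfn4 stayed below background on all arrays, at 5.10 to 5.27, the only one of the 35 genes to do so.

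Trim30d was the one gene of the group to pass the test. It read 4.60 and 6.80 on the Hem1 KO arrays, against 9.36 and 7.76 on the WT arrays. Both Hem1 KO arrays were below both WT arrays, the arrays of each genotype also differed widely, and Hem1 KO replicate 1 was below background. The fitted difference was -2.86 (SE 0.61, adjusted p = 0.0308 by limma), and with Hem1 KO replicate 1 held at background Trim30d was at least 4.42-fold lower in Hem1 KO. Without WT replicate 1 it was -2.06, and it ran from -3.96 without Hem1 KO replicate 2 to -1.77 without Hem1 KO replicate 1. The call ended after quantile normalization (-2.92, adjusted p = 0.260) and when only the brighter genes were fitted (adjusted p = 0.265), while the difference kept its size. Trim30a, a restraint on Toll-like receptor signalling and the nearby copy with the similar upstream sequence, read 9.97 and 10.16 on the Hem1 KO arrays, against 11.05 and 9.99 on the WT arrays. Trim30a thus followed the common order, high on WT replicate 1 alone (-0.46, SE 0.37, adjusted p = 1 by limma). Whether the probe sets of the Trim30 copies take up each other's signal was not tested.

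The other effectors varied in the order of their arrays. Xaf1, which promotes cell death, read 7.99 and 6.94 on the Hem1 KO arrays, against 7.98 and 6.95 on the WT arrays, so that replicate 1 was high in both genotypes and the difference was 0.00 (SE 0.42). It was the only gene of the 35 for which WT replicate 1 was not the highest, by a margin of 0.02. Ifi27l2a read 8.28 and 8.58 on the Hem1 KO arrays, against 9.22 and 8.93 on the WT arrays. The WT arrays differed by only 0.29, and both lay above both Hem1 KO arrays (-0.64, SE 0.32, adjusted p = 1 by limma, and -0.49 without WT replicate 1). Ifi35 likewise read 8.90 and 8.95 on the Hem1 KO arrays, against 9.66 and 9.12 on the WT arrays. Phf11d read 8.09 and 8.40 on the Hem1 KO arrays, against 9.65 and 8.24 on the WT arrays. Isg20, an exonuclease that degrades viral RNA, read 7.47 and 6.93 on the Hem1 KO arrays, against 8.36 and 6.56 on the WT arrays, and Parp14, an ADP-ribosyltransferase, 7.28 and 6.77 on the Hem1 KO arrays, against 7.66 and 6.80 on the WT arrays. For Phf11d and Parp14 WT replicate 2 lay between the Hem1 KO arrays, and for Isg20 it was the lowest of the 4.

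For genes upstream of the response, the median difference between WT replicates 1 and 2 was 0.35 for the ligands and 0.42 for the sensing genes. It was 0.28 for the listed negative regulators, beside 1.21 for the 35 response genes. Single sensing genes differed more, as given below. The sensors Ifih1, Dhx58 and Zbp1 stand among the 35 and not in the sensing list, so these lists do not divide sensors from response genes. Of 18 type I interferon genes, 16 were measured, 8 of them below background on all arrays. None passed limma's test, nor did any reach an unadjusted p under 0.05 in either direction (0 higher, 0 lower). Over all genes, 3.63% were higher and 1.57% lower at that unadjusted p. Ifnb1, interferon beta, read 6.22 and 4.86 on the Hem1 KO arrays, against 5.44 and 4.71 on the WT arrays, and was above background on Hem1 KO replicate 1 alone. Of the 16, 5 lay above background on all arrays. The interferon alpha genes are near-identical copies, and their probe sets may not tell them apart. Of the ligand genes with the smallest p, Ifnz had a difference of 0.51, Ifna6 of -0.41 and Ifna12 of 0.32.

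The receptor chains read at similar levels on all arrays. Ifnar1 read 9.69 and 9.64 on the Hem1 KO arrays, against 9.79 and 9.75 on the WT arrays. Ifnar2 read 11.63 and 11.39 on the Hem1 KO arrays, against 11.70 and 11.64 on the WT arrays. The kinase gene Jak1 had a difference of -0.16 and Tyk2 of -0.31, both with an adjusted p of 1 by limma. The median difference between WT replicates 1 and 2 over these 4 genes was 0.21, beside 0.28 for all genes.

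The list of nucleic acid sensing upstream of interferon also holds Tlr4 and its adaptor gene Ticam2, which are not specific to nucleic acid. Of its 16 measured genes, 0 passed limma's test, and their median was -0.33 beside 0.01 for all genes. By unadjusted p 1 was lower, against 1.57% of all genes, and 0 were higher, against 3.63%. WT replicate 1 was highest for 15 of the 16, against 37.5% of all genes. It exceeded every other array by over 1 log2 unit for 2, against 0.405% of all genes. Between WT replicates 1 and 2, Tlr9 differed by 1.76, Ddx58 by 1.26, Ikbke by 1.13 and Trim25 by 1.09. These genes were chosen after their values were seen, and the other sensing genes differed less. Ticam2, an adaptor of Toll-like receptor signalling, had the smallest p (-0.92, SE 0.36, adjusted p = 0.632 by limma), followed by the ubiquitin ligase gene Trim25 (-0.69), the cytosolic DNA sensor gene Cgas (-0.58) and Myd88 (-0.50). The list of negative regulators also holds Ifnlr1, a receptor gene for interferon lambda. Of its 10 measured genes, 0 passed limma's test. By unadjusted p 1 was lower and 0 were higher, beside the same 1.57% and 3.63% of all genes. The lower one was Samhd1, which degrades nucleotides and limits the response. Samhd1 read 9.87 and 9.81 on the Hem1 KO arrays, against 11.11 and 10.44 on the WT arrays (-0.94, SE 0.34, adjusted p = 0.461 by limma). Pias1, Adar and Ptpn6 followed with differences of -0.36, -0.36 and -0.28. The receptor inhibitor Socs1, which interferon itself induces, was chosen after its values were seen. It read 5.44 and 5.06 on the Hem1 KO arrays, against 5.89 and 4.98 on the WT arrays, and was above background on WT replicate 1 alone.

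A further 54 measured response genes followed the order of the 35. This list too was chosen with earlier results of these data known, and it holds relatives of members, such as Oas1g and Ifit3b. Whether their probe sets share signal with those of the 35 was not tested. WT replicate 1 was the highest array for 53 of the 54, against 37.5% of all genes. It exceeded every other by over 1 log2 unit for 15, against 0.405% of all genes. Together with the 17 above, these account for 32 of the 79 genes of the array that did so. The median difference between WT replicates 1 and 2 was 0.94. Between genotypes 0 of the 54 passed limma's test, beside 0.133% of all genes called lower and 1.48% higher. By unadjusted p 7 were lower, against 1.57% of all genes, and 0 were higher, against 3.63%. The median was -0.42 beside 0.01 for all genes, and 0.08 beside 0.16 without WT replicate 1. Those with the smallest p were Samd9l, a growth restraint (-1.23, SE 0.39, adjusted p = 0.293 by limma), the p200 family genes Ifi211 (-1.16) and Mndal (-0.90), and Znfx1 (-0.98), an RNA helicase gene. Samd9l read 7.97 and 8.19 on the Hem1 KO arrays, against 9.93 and 8.69 on the WT arrays, so that both WT arrays exceeded both Hem1 KO arrays. Ifi213 and Ifit1bl1 were chosen after their values were seen. Ifi213 read 5.47 and 4.80 on the Hem1 KO arrays, against 8.39 and 4.82 on the WT arrays. Ifit1bl1 read 4.72 and 4.18 on the Hem1 KO arrays, against 7.72 and 4.17 on the WT arrays. Both genes were above background on WT replicate 1 alone, where they were at least 7.34-fold (Ifi213) and 4.62-fold (Ifit1bl1) higher than on WT replicate 2 held at background. Among the 12158 genes above background on both WT arrays were 29 of the 35 and 45 of the 54, and the 100 with the largest excess of WT replicate 1 over WT replicate 2 held 11 of the 29 and 4 of the 45.

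**Figure D4:**
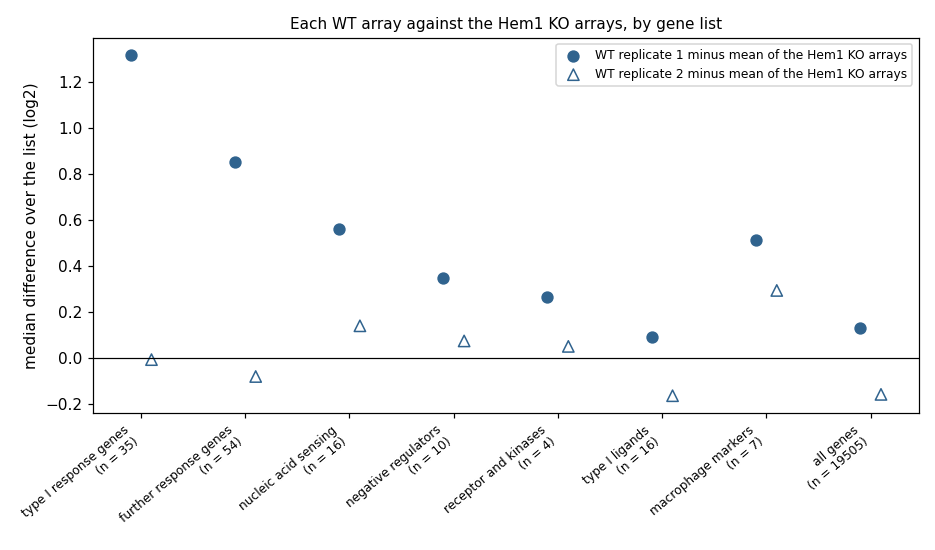
Median log2 difference of each WT array from the mean of the 2 Hem1 KO arrays (vertical axis), for the interferon response genes, other lists of the pathway, macrophage markers and all genes (horizontal axis, with the number of measured genes). Filled circles stand for WT replicate 1 and open triangles for WT replicate 2. For the 35 response genes the medians are 1.32 and -0.01, and for all genes 0.13 and -0.16.

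The median difference between WT replicates 1 and 2 was 0.19 for the 7 macrophage markers and ran from 0.18 for 4 T and NK cell markers to 0.41 for 4 B cell markers over the lists of other cells, beside 1.21 for the 35 response genes. Single markers differed more, such as the B cell gene Cd79b, by 1.23, and the stromal gene Dcn, by 1.04, both chosen after their values were seen. Cd79b read 6.06 and 5.64 on the Hem1 KO arrays, against 7.07 and 5.84 on the WT arrays, and the part of B cells in the result was not tested. Plasmacytoid dendritic cells are a strong source of type I interferon. Of their 6 markers, Siglech, Ccr9 and Pacsin1 were below background on all arrays, and Tcf4, Ly6d and Bst2 were above it on all arrays. Siglech read 5.43 and 4.86 on the Hem1 KO arrays, against 5.26 and 4.61 on the WT arrays. Tcf4 read 12.26 and 12.03 on the Hem1 KO arrays, against 12.22 and 11.93 on the WT arrays. The part of these cells in the result was not tested. Bst2 stands in that list and among the 35.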

How the data were processed

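RNA of 4 macrophage cultures was labelled with the GeneChip Pico kit, per the labels' protocols. The deposited table holds log2 values made with RMA, per the submitters' processing notes, without a version or settings. Of its 29129 rows, 19572 name 1 gene in the platform annotation, and the brightest probe set per gene by mean over the 4 arrays gave 19505 genes. The array medians differ, so a quantile step across these 4 arrays is not visible, and the values were used as deposited. The number of arrays limits the precision.

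The test was limma's moderated one (version 3.58.1, R 4.3.3; two-sided, genotype alone in lmFit, then eBayes), with Benjamini-Hochberg adjustment across the 19505 genes and calls made under 0.05, and the fit was tested on simulated data. Differences are Hem1 KO minus WT with n = 2 per genotype. Where neither Hem1 KO array exceeded background, the fold is a bound, taken against the higher of background and the gene's own value. All 35 members are named, other lists by smallest p unless stated. The members and lists were chosen with earlier results of these data known. Alternatives left out each array, blocked on replicate number, centred or quantile normalized, kept brighter genes, let the prior follow intensity, or averaged probe sets.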

Additional observations from a re-analysis of the deposited data

How the results depend on the processing

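In the deposited values, the direction of the group as a whole depended on WT replicate 1 and on no other setting tried. With all arrays 34 of the 35 genes lay under 0, against 48.2% of all genes. Without that array 17 did, against 29.0% of all genes, and the median was 0.01 beside 0.16 for all genes. A fit without that array after centring or quantile normalization was not run. Over the fits that left out an array the count under 0 ran from 17 to 35. In such fits the genes of the 35 called lower ran from 1 to 9, those lower at an unadjusted p under 0.05 from 1 to 25, calls over all genes from 26 to 101 lower and from 185 to 545 higher, and the median of the sensing genes from -0.56 to -0.14. Log2 differences that changed sign in them ran over these ranges: Irf7 -3.39 to 0.053, Zbp1 -1.01 to 0.21, Ifit2 -2.76 to 0.82, Ifit3 -1.54 to 0.14, Oas1a -1.06 to 0.15, Oas2 -1.55 to 0.48, Oasl1 -1.71 to 0.088, Mx2 -0.96 to 0.13, Isg15 -1.22 to 0.60, Usp18 -1.44 to 0.37, Rsad2 -1.86 to 0.29, Bst2 -0.45 to 0.11, Slfn1 -0.53 to 0.22, Trim30a -0.99 to 0.070, Xaf1 -0.53 to 0.53, Phf11d -1.40 to 0.0064, Isg20 -1.16 to 0.63, Parp14 -0.63 to 0.23. Over all genes, 26 called lower and 288 higher became 199 and 620 with a replicate block, 4 and 136 among brighter genes only, and the lower count became 70 after median centring, 16 after quantile normalization and 205 with an intensity trend in the prior. Of the 35, limma called 1 lower, but 7 with the replicate block, 6 with the intensity trend, 0 after quantile normalization and 0 among brighter genes. The count at an unadjusted p under 0.05 was 9 (1.57% of all genes), but 19 with the block (4.96% of all genes), 18 with the trend (3.60%) and 18 after median centring (5.20%). The cause of these changes was not tested. Xaf1 turned to -0.10 after median centring and -0.029 after quantile normalization. Median centring moved the median of all genes to -0.09, against 0.01 as deposited. Arrays with the same replicate number deviated together across all genes (r = 0.24) but not across the 35 (r = -0.17). With 2 replicate numbers, these correlations cannot decide whether arrays were handled in pairs. Averaging probe sets could not alter the values of the 35, since each had a single probe set, and changed no call among them. Dim genes such as Slfn4, Mx1 and Ifit2 are limited by background.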
